A study of Mus musculus with 7 samples.

Results

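The Nedd4 family of ubiquitin ligases was examined in open chromatin of muscle stem cells (MuSCs) from wild-type mice and mice with a conditional deletion in Nedd4l. Its 9 members, Nedd4, Nedd4l, Itch, Wwp1, Wwp2, Smurf1, Smurf2, Hecw1 and Hecw2, were taken by name from 21887 protein-coding RefSeq genes of mm10. A locus was the RefSeq span of the gene plus 10 kb on both sides, and a promoter was a transcript start ± 1 kb. Over all libraries the 9 loci held 110 of 95163 accessible regions.

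Ubiquitin ligases of this family join a C2 domain, which binds membranes, WW domains, which hold substrates or adaptors that carry a PPxY motif, and a catalytic HECT domain, which takes ubiquitin from an E2 enzyme and passes it to the substrate. Nedd4l, the gene deleted here, is known for removing the epithelial sodium channel from the cell surface and for acting on a receptor of TGF-beta. As the paralogs share domains and some substrates, the question asked of these data was whether their promoters and gene bodies are open in MuSCs and whether this differs where Nedd4l is deleted.

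The assay was ATAC-seq, in which the transposase Tn5 cuts and tags accessible DNA. There were 4 Nedd4L-cKO libraries (Nedd4L fl/fl Pax7 cre/+) and 3 Nedd4L-WT libraries. Each came from 5000 MuSCs sorted from hindlimb muscle, and the mice of the ATAC-seq experiment were males of 5-6 weeks, of a line on a C57BL/6 background. Pax7-driven Cre removes a floxed exon of the catalytic domain in cells that express Pax7 and in their progeny, while the gene is still transcribed. The further alleles of the WT mice are not given in the sources used here. A list of peaks carries no signal outside peaks and the floxed exon was not placed on mm10, so no value below checks the deletion itself.

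The authors called broad peaks in each library separately. The libraries kept 14.4 to 20.1 M tags (M for mega) and listed 69302 to 79158 peaks on the autosomes, X and Y. The promoters of 9 of 9 MuSC markers, among them Pax7 and Myf5, were called in every library. Promoters of the blood markers Ptprc, Itgam and Cd3e were called in no library, as was that of the pluripotency gene Pou5f1. Of the endothelial markers, Pecam1 and Cdh5 were called in no library while Kdr and Tek were called in all 7. Of the fibro-adipogenic markers, Pdgfra and Ly6a were called in no library, Dcn in 2 Nedd4L-cKO and 3 WT libraries and Lum in 1 Nedd4L-cKO library. Of the muscle fiber markers, Acta1, Myh1 and Myh4 were called in all libraries and Ckm in 3 Nedd4L-cKO and 2 WT libraries. In bulk libraries, fewer open cells and less opening per cell cannot be told apart.

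The number of peaks per locus differed widely among the members and overlapped between the genotypes. Nedd4l, on chromosome 18 (mm10 chr18:64884480-65217826, plus strand), had the most. Its locus held 31, 34, 33 and 35 peaks in the 4 Nedd4L-cKO libraries and 34, 34 and 33 in the 3 WT libraries. Smurf1 (chr5:144876495-144965899, minus strand), which limits BMP signaling through Smad proteins, held 13, 15, 13 and 14 peaks against 13, 13 and 14. In both genes the Nedd4L-cKO libraries spanned the wider range. Nedd4 (chr9:72662331-72749851, plus strand), the founding member, held 9, 10, 8 and 11 peaks against 10, 8 and 10. Wwp2 (chr8:107436334-107559290, plus strand) held 9, 6, 8 and 9 against 9, 9 and 8, and Hecw2 (chr1:53806872-54195034, minus strand) 8, 8, 9 and 9 against 10, 10 and 7.

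The other 4 members had few peaks. Itch (chr2:155133481-155226855, plus strand), a ligase that restrains T cell responses, had 3 in every library. Smurf2 (chr11:106820061-106920747, minus strand), a partner of Smad7 in the turnover of TGF-beta receptors, had 2, 3, 1 and 4 in Nedd4L-cKO and 1, 1 and 2 in WT libraries. Wwp1 (chr4:19608296-19709004, minus strand) had 1, 4, 2 and 2 against 2, 2 and 1. Hecw1 (chr13:14226438-14523289, minus strand), best known from neurons, had 1, 2, 1 and 1 against 1, 1 and 1 although its span is 297 kb long.

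**Figure D1:**
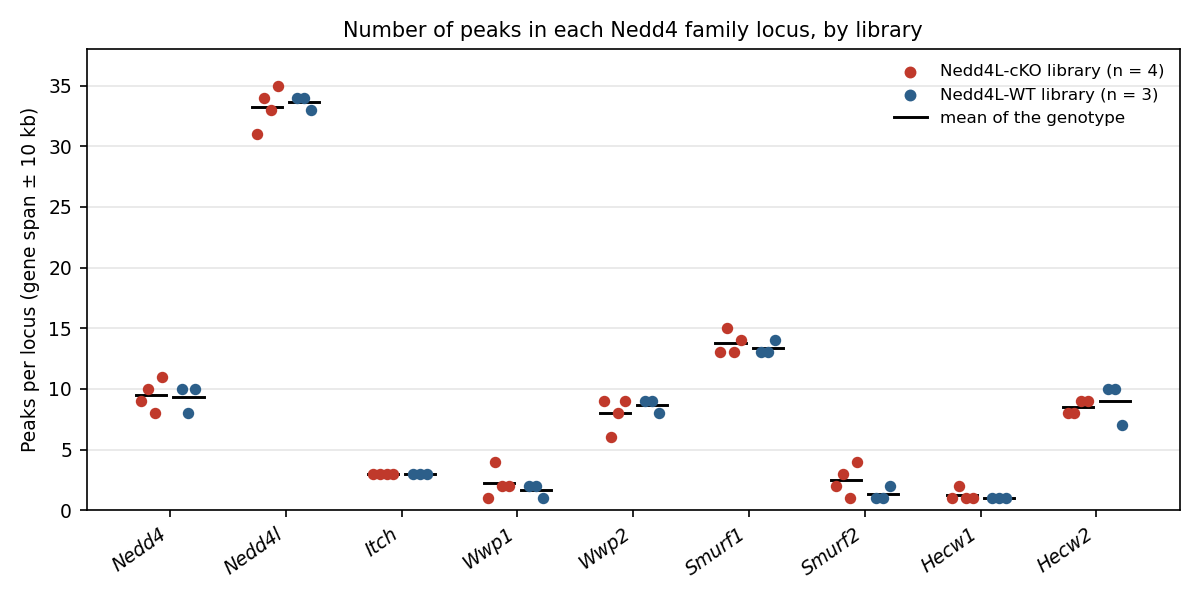
Peaks in each Nedd4 family locus (gene span ± 10 kb), with a point for each library (4 Nedd4L-cKO, 3 Nedd4L-WT) and a bar at the mean of the genotype. Nedd4l holds 31 to 35 peaks in every library and Hecw1 1 or 2, and the points of both genotypes overlap in every locus.

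Per length the order changed. Smurf1 led with a mean of 1.24 peaks per 10 kb of locus, above 96.9% of the 4945 genes of at least 50 kb, followed by Nedd4l with 0.946 (above 89.4%) and Nedd4 with 0.877 (above 86.8%). Wwp2 had 0.580, Itch 0.265 and Hecw2 0.214 peaks per 10 kb. Smurf2 and Wwp1 had 0.166 each and Hecw1 0.0361. Itch and the members after it lay below the median of long genes, 0.344. Over the 7 libraries Nedd4l ranged from 0.877 to 0.991 and Nedd4 from 0.744 to 1.02 peaks per 10 kb, so these neighbours in the order overlapped. Peaks covered 8.65% ± 0.702 (SD) of the Nedd4l locus in the 4 Nedd4L-cKO libraries against 8.66% ± 0.339 in the 3 WT libraries. They covered 10.6% ± 1.46 against 9.81% ± 0.678 of the Smurf1 locus and 0.275% ± 0.109 against 0.217% ± 0.114 of the Hecw1 locus.

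None of the 9 counts passed an exact permutation test (two-sided) of the difference between the genotype means. Over all 17440 genes with a peak in their locus, 0.453% had an exact p under 0.05, 79 genes, and 0 passed Benjamini-Hochberg adjustment. Among the members Smurf2 had the lowest exact p, 0.371, with 2.5 ± 1.29 peaks (mean ± SD) in the 4 Nedd4L-cKO against 1.33 ± 0.577 in the 3 WT libraries. The exact p was 0.83 for Nedd4l, and 5 members had the higher mean in Nedd4L-cKO, 3 the lower and Itch the same. The smallest p that 7 libraries allow is 0.0286. Adjustment over 17440 genes could therefore be passed only if most of them had a p that low. The 0 after adjustment thus says nothing about single genes.

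Overlapping peaks of the libraries were merged into regions. In the member loci 56 of 110 regions (50.9%) were called in all 7 libraries, beside 56.0% of all regions, and 19 (17.3%) in 1 library alone, beside 14.7% of all. Nedd4l had 23 of the shared regions, Smurf1 10, Nedd4 and Hecw2 6 each, Wwp2 5, Itch 3, and Wwp1, Smurf2 and Hecw1 1 each. No region in a member locus was called in every library of one genotype and in none of the other. This held for 0.0694% of all regions in the Nedd4L-cKO direction and 0.082% in the WT direction. In Wwp1, Smurf2 and Hecw1 the single shared region was the one at the promoter. The shared regions of Hecw2, apart from that at its promoter, lay 254 to 380 kb downstream of the start, in the distal part of the gene. Whether a region lies in an exon or an intron was not determined, since exons were not placed on mm10.

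**Figure D2:**
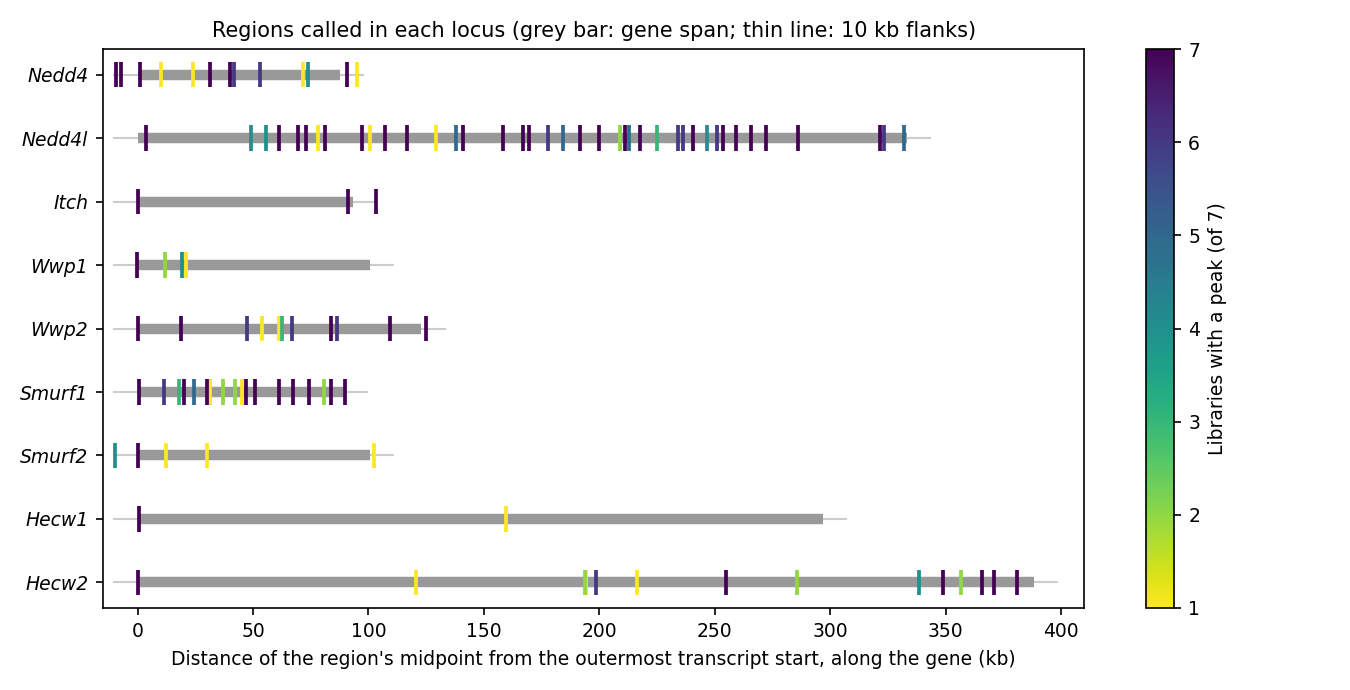
Accessible regions of the 9 loci by distance of the region's midpoint from the outermost transcript start (kb, in the direction of the gene), colored by the number of the 7 libraries with a peak. Grey bars are gene spans. Nedd4l carries shared regions 2.32 kb inside the gene and from 60.5 kb onward, and Smurf1 at the start and from 19.4 kb onward. Wwp1, Smurf2 and Hecw1 have 1 each, at the start.

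In Nedd4l itself the genotypes shared a set of 23 regions along the gene. Percentiles below rank a peak among all peaks of its own library, by pileup (mean coverage of the peak by extended tags) or by fold enrichment (pileup over the local background), with 100 the highest. The outermost RefSeq start, at position 64884480, was called in 0 of 7 libraries within 1 kb. The nearest region, at 64886797-64889137, was called in all 7. The peaks began 2549, 2590, 2555 and 2537 bp inside the gene in the Nedd4L-cKO libraries and 2434, 2317 and 2549 bp inside it in the WT libraries. RefSeq lists 25 transcripts of Nedd4l, whose other starts were not placed on mm10, so whether this region lies at one of them was not determined. By pileup it stood at percentiles 94.4, 92.9, 95.4 and 96.3 in Nedd4L-cKO and 96.1, 94.7 and 92.7 in WT libraries, which overlap.

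A region at 65082617-65085765, 198 kb inside Nedd4l, ranked highest in the gene by pileup. Its percentiles were 96.1, 94.1, 95.5 and 96.7 in Nedd4L-cKO and 98.4, 97.4 and 97.7 in WT libraries, and so did not overlap. Among all 53245 shared regions 3.23% had pileup percentiles that did not overlap between the genotypes, and in the member loci 5 of 56 (8.93%) did, 3 of them in Nedd4l. By fold enrichment the same region overlapped, at 31.6, 21.7, 29.5 and 33.1 against 56.0, 31.8 and 36.6. A further one, at 65143117-65144062, was weak. Its pileup percentiles were 5.22, 37.5, 7.24 and 18.3 in Nedd4L-cKO and 0, 4.81 and 2.02 in WT libraries. By fold enrichment this region overlapped, at 12.9, 62.5, 7.99 and 30.2 against 11.3, 13.4 and 11.3.

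The third, at 64953687-64954558, 69.2 kb inside the gene, had pileup percentiles of 19.2, 37.3, 31.9 and 34.1 in Nedd4L-cKO and 39.9, 44.3 and 49.5 in WT libraries. By fold enrichment it overlapped, at 43.6, 69.2, 44.9 and 40.2 against 64.4, 72.7 and 72.7. In limma on pileup ranks 3 of the 56 shared member regions (5.36%) had an unadjusted p under 0.05, beside 2.71% of all shared regions, and none passed adjustment. All 3 were these Nedd4l regions. Their differences, Nedd4L-cKO minus WT, were -0.33 at 65082617-65085765, 1.20 at 65143117-65144062 and -0.50 at 64953687-64954558. The unadjusted limma p was 0.0136, 0.0144 and 0.0155 in that order. The test draws on the same pileup values by which these regions were picked.

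**Figure D3:**
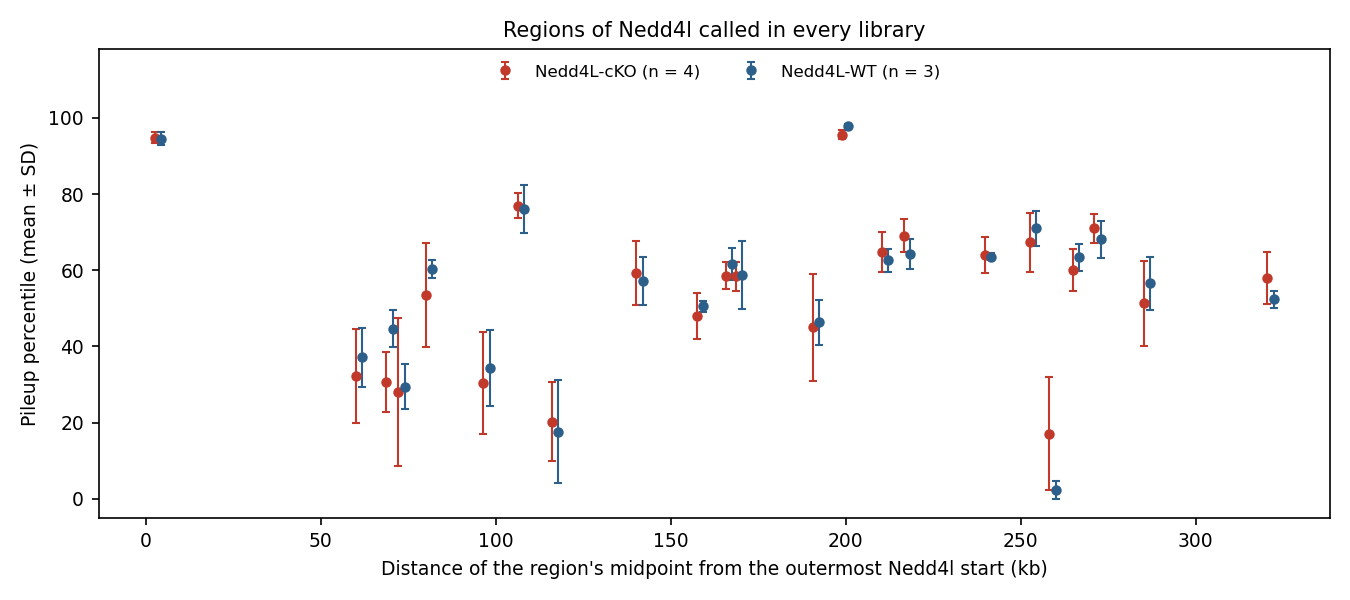
The 23 regions of Nedd4l called in every library, by distance of the midpoint from the outermost start (kb) and by pileup percentile within the library (points are genotype means, bars are SD, n = 4 and n = 3). The regions 2.32 and 198 kb inside the gene rank above 90 in both genotypes, and the remaining ones lie mostly between 20 and 80, in most cases with overlapping bars.

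Outside Nedd4l, the promoters of the family were called in both genotypes. All 8 paralogs had a promoter called in each of the 7 libraries, so that 8 of 9 members did (88.9%), beside 63.4% of the 21440 genes with a placed start. With a -log10 q of at least 5 this held for 5 of 9 members (55.6%), beside 53.5% of all genes: Wwp2 and Hecw2 were then called in 6 of 7 libraries each and Hecw1 in 0. With a peak required to cover the start itself it held for 7 of 9, again without Hecw1, beside 58% of all genes. Of 10 placed member promoters 9 were called throughout, since Nedd4 has a start at position 72662331 and another inside the gene, at 72693298. The promoter not called was the outermost start of Nedd4l, the only one placed for a gene with 25 RefSeq transcripts. Further starts of the members were not used. The promoters differed widely in openness. The median pileup percentile over the libraries was 93.3 at Wwp1, 88.8 at Itch, 83.8 at Smurf1, 70.7 and 69.7 at the internal and the outermost start of Nedd4, 70.1 at Smurf2, 55.9 at Wwp2, 53.5 at Hecw2 and 12.1 at Hecw1. The median of all promoters called in every library was 86.8, so that Wwp1 and Itch lay above it and the rest below. Neighbours in this order often overlapped over the libraries, such as Smurf2 with both Nedd4 starts and Wwp2 with Hecw2, whereas Wwp1 (92.9 to 95), Itch (85.6 to 89.6) and Hecw1 (1.44 to 26.1) did not overlap with the member next to them, except that Itch overlapped with Smurf1 (79.8 to 86.7).

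**Figure D4:**
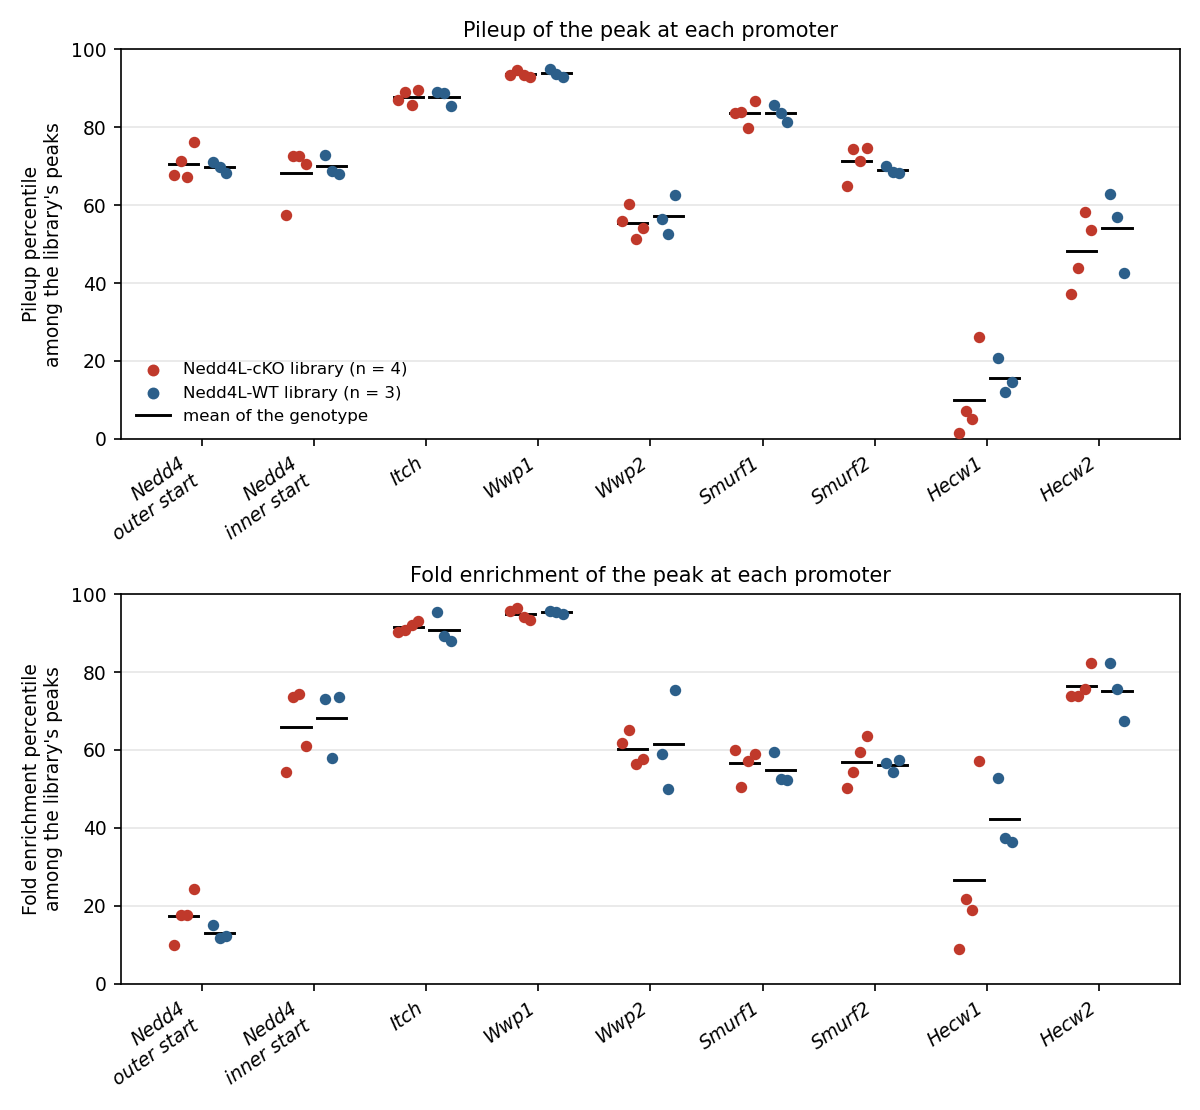
Pileup percentile (top) and fold enrichment percentile (bottom) of the peak at each member promoter within its library, with a point for each library and a bar at the mean of the genotype. Wwp1 and Itch rank high on both scales, Hecw1 has the lowest pileup percentiles, and the outermost Nedd4 start ranks near 70 by pileup and below 25 by fold enrichment.

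Both starts of Nedd4 had peaks of similar pileup and unlike fold enrichment. At the outermost start (region chr9:72661552-72664941) pileup percentiles were 67.8, 71.2, 67.2 and 76.1 in Nedd4L-cKO and 71.1, 69.7 and 68.2 in WT libraries, and fold enrichment percentiles were 10.0, 17.6, 17.5 and 24.3 against 15.0, 11.7 and 12.2. At the internal start (region chr9:72692548-72694582) pileup percentiles were 57.5, 72.6, 72.6 and 70.7 against 72.9, 68.8 and 68.1, and fold enrichment percentiles were 54.4, 73.5, 74.4 and 60.9 against 73.2, 58.0 and 73.7. The genotypes overlapped on each scale, with replicate 1 of Nedd4L-cKO lowest at the internal start. The bases before the starts differ too, and are shown because they set apart a pair of promoters of one gene. Here, and for Wwp2 and Smurf2 below, the 250 bases upstream of the start are given from RefSeq on GRCm38.p6, the assembly of mm10, 5′ to 3′ on the strand of the gene. Capitals mark matches, on either strand, to GGGCGG (the GC box of Sp1 factors), CCAAT (bound by NF-Y), CANNTG (the E-box of factors such as MyoD), the TATA box TATAAA, the ETS motif GGAAGT, the cyclic AMP element TGACGTCA or the NRF1 motif GCGCATGC.
Nedd4 outermost start, chr9:72662081-72662330, plus strand: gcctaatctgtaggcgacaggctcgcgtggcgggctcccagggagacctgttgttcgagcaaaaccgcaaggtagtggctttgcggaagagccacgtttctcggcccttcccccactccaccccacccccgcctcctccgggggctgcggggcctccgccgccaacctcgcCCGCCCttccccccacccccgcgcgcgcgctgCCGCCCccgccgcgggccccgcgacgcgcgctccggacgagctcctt
Nedd4 internal start, chr9:72693048-72693297, plus strand: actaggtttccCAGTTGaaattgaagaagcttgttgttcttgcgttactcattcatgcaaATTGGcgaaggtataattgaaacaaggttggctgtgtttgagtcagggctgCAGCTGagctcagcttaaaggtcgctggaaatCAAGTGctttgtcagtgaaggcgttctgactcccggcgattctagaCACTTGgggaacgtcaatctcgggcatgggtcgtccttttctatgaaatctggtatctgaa

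The outermost Nedd4 start has 74.0% G and C, 32 CpG and 2 GC boxes, the internal one 46.0%, 9 CpG, no GC box, 1 CCAAT and 4 E-boxes. In 32851 RefSeq promoters the median G and C content of these 250 bases was 52.4% with 6 CpG. GGGCGG was held by 32.7% of them, CCAAT by 33.8%, CANNTG by 66.2%, TATAAA by 12.4%, GGAAGT by 19.7%, TGACGTCA by 1.55% and GCGCATGC by 2.3%. A match is only a match of letters. Nedd4 also had 2 shared regions upstream of its start, 8458 and 6262 bp away, of which the farther one (chr9:72652429-72653873) had the highest pileup in the locus with a median percentile of 83.2.

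Itch, Wwp1 and Wwp2, a closely related branch of the family, ranged from the most open member promoter, at Wwp1, to one of the less open, at Wwp2. By median pileup percentile Wwp2 stood at percentile 10.6 of all promoters called in every library. The Wwp1 promoter (chr4:19708392-19709755) had pileup percentiles of 93.3, 94.7, 93.3 and 92.9 in Nedd4L-cKO and 95, 93.6 and 93.0 in WT libraries. The Itch promoter (chr2:155133063-155134584) had 87.0, 89.1, 85.6 and 89.6 against 89.0, 88.8 and 85.6. In both genes the values of the genotypes lay within a few percentiles of each other and overlapped. Wwp2 (chr8:107435719-107437420) had 55.9, 60.3, 51.3 and 54.2 against 56.4, 52.7 and 62.6, again overlapping. Its start was the only one of the 6 member promoters with a sequence that had a TATAAA match, and it is shown because it carries 5 E-boxes beside 1 GC box, with 62.8% G and C.
Wwp2, chr8:107436120-107436369, plus strand: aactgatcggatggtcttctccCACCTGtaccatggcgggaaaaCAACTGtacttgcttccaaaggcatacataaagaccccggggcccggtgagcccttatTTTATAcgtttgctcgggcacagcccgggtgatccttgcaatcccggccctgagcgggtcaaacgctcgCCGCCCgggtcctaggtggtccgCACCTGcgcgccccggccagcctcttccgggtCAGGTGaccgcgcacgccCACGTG

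Smurf1 and Smurf2, which act on Smads and on receptors of TGF-beta and BMP, both had open promoters. The Smurf1 promoter (chr5:144964195-144966666) had pileup percentiles of 83.8, 83.9, 79.8 and 86.7 in Nedd4L-cKO and 85.6, 83.6 and 81.4 in WT libraries. The Smurf2 promoter (chr11:106919378-106921426) had 64.9, 74.5, 71.4 and 74.6 against 70.1, 68.6 and 68.3. The WT values fell within the Nedd4L-cKO range in both genes. Upstream of their starts G and C made up 74.8% in Smurf1, with 1 GC box, and 82% in Smurf2, above 99.3% of the RefSeq promoters. The Smurf2 sequence is shown for its 7 GC boxes, 2 of which share a base.
Smurf2, chr11:106920716-106920965, minus strand: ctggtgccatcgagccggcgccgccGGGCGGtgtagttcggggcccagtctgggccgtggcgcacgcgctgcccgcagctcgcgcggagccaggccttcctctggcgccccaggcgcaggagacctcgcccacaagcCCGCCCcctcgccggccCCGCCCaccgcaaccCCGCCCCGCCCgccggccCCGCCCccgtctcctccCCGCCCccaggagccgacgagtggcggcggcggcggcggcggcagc

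Hecw1 and Hecw2 had the least open promoters by pileup, and the widest spread. The single shared Hecw1 region (chr13:14521876-14523204) ended 85 bp inside the gene and did not cover the start. It had pileup percentiles of 1.44, 7.21, 5.20 and 26.1 in Nedd4L-cKO and 20.7, 12.1 and 14.5 in WT libraries, with fold enrichments over background of 2.73, 2.99, 2.94 and 3.76 against 3.75, 3.41 and 3.43. In 3 of 4 Nedd4L-cKO libraries the peak was below all WT libraries, and in replicate 4 it was above them. The Hecw2 promoter (chr1:54193974-54195358) had pileup percentiles of 37.1, 44.0, 58.2 and 53.5 against 62.9, 56.9 and 42.6. Its lowest values were in the 3 libraries with the fewest kept tags, 15.0, 15.1 and 14.4 M, and the part of depth in this was not tested. By fold enrichment Hecw2 ranked higher, at a median of 75.7, and Hecw1 at 36.5. Upstream of the Hecw2 start G and C made up 70.0%, with 3 GC boxes.

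No promoter of the family passed the test of a difference between the genotypes, run by limma on normal scores of the fold enrichment rank, whose unit is 1 SD of the ranks. The 9 promoter differences, Nedd4L-cKO minus WT, ran from -0.51 to 0.11 with standard errors of 0.16 to 0.31, and each adjusted p was 1.00. Hecw1 had the largest, -0.51 ± 0.31 (SE, unadjusted p = 0.138), with fold enrichment percentiles of 26.7 ± 21.1 (mean ± SD) in the 4 Nedd4L-cKO against 42.2 ± 9.15 in the 3 WT libraries. Its size rested on single libraries, as it was -0.31 without replicate 1 and -0.78 without replicate 4 of Nedd4L-cKO. The other 8 lay between -0.09 and 0.11. At Wwp1, the most open, the difference was -0.03 ± 0.17, and at Itch it was 0.02 ± 0.19.

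Over all 56 shared regions of the loci, 27 had the higher and 29 the lower score in Nedd4L-cKO, and the median difference was -0.0099, beside 0.015 over all 53245 shared regions. The SD of the differences was 0.27 in both. An unadjusted p under 0.05 was reached by 3 of the 56 (5.36%), beside 3.98% of all regions. None passed adjustment, and 0 of all regions did. The 3 were 1 region each of Smurf1, Nedd4l and Nedd4. In Smurf1 a region at chr5:144918395-144919508, 46.4 kb inside the gene, had fold enrichment percentiles of 21.2, 27.3, 29.8 and 29.0 in Nedd4L-cKO and 20.1, 7.38 and 9.05 in WT libraries, a difference of 0.50 ± 0.19 (SE, unadjusted p = 0.0300, adjusted p = 1.00 by limma). These values did not overlap, which held for 4.96% of all shared regions and for 2 of the 56 (3.57%).

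The region of Nedd4l 69.2 kb inside the gene differed by -0.62 ± 0.24 (unadjusted p = 0.0307, adjusted p = 1.00 by limma). In Nedd4 a region past the end of the gene, at chr9:72752214-72754189, had fold enrichment percentiles of 29.8, 52.4, 45.1 and 45.3 in Nedd4L-cKO and 18.8, 32.7 and 26.6 in WT libraries, which overlap, with a difference of 0.47 ± 0.21 (unadjusted p = 0.0476, adjusted p = 1.00 by limma). The second region that did not overlap by fold enrichment lay in Wwp2, at chr8:107519795-107520471, with 67.5, 30.1, 67.8 and 61.0 against 70.3, 80.1 and 74.8 and a difference of -0.58 ± 0.28 (unadjusted p = 0.0629, limma). In Hecw2 the lowest p was 0.0921, for a region at chr1:53828842-53830007 with a difference of 0.63 ± 0.34. In Itch it was 0.372, for the region past the end of the gene. A second Smurf1 region, at chr5:144935053-144936560, did not overlap by pileup alone. The Smurf1 region at chr5:144918395-144919508 did not overlap by pileup either, at percentiles of 54.1, 65.4, 56.1 and 61.9 in Nedd4L-cKO and 53.6, 44.5 and 52.8 in WT libraries (unadjusted p = 0.0508, limma on pileup ranks).

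**Figure D5:**
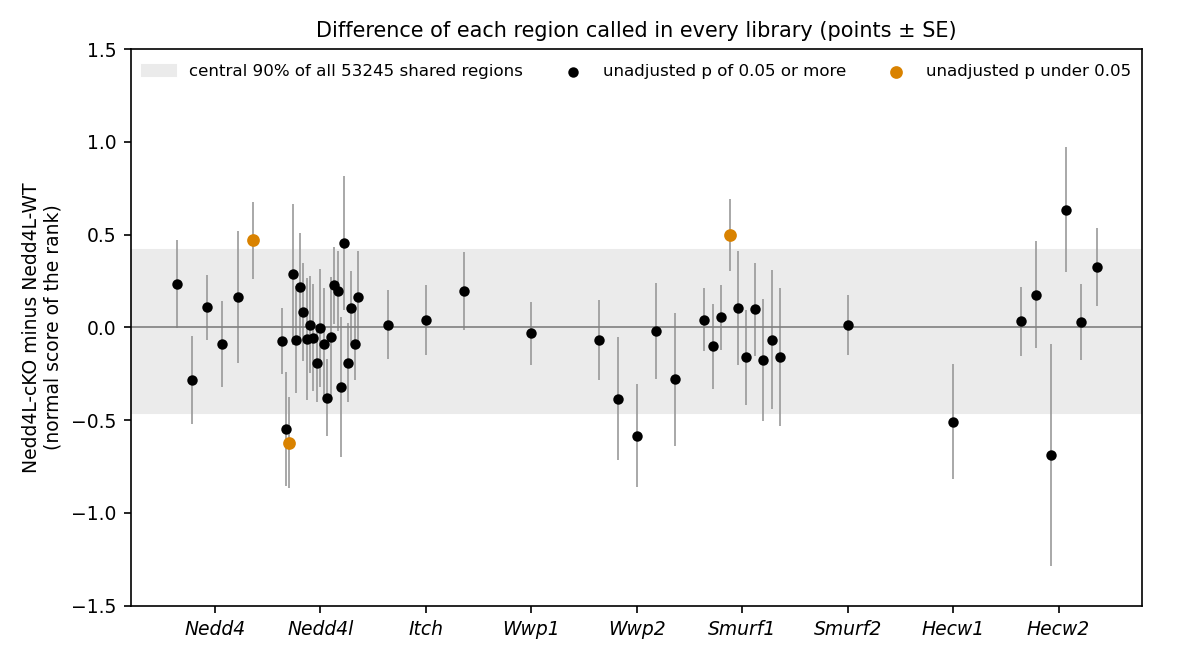
Difference between the genotypes (Nedd4L-cKO minus WT, limma on normal scores of the fold enrichment rank, ± SE) of the 56 regions called in every library, ordered along each gene. The grey band holds the central 90% of all 53245 shared regions; the 3 orange regions, of Nedd4, Nedd4l and Smurf1, have an unadjusted p under 0.05 and none passes adjustment.

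Partners and relatives of the family were examined by the same calls, beside 63.4% of all genes called in every library and the median pileup percentile of 86.8 of their promoters. The genes listed here as adaptors (Ndfip1, Ndfip2, Arrdc1 to Arrdc4, Pmepa1 and Tollip) had promoters called in all libraries in 8 of 8 cases, with a median pileup percentile of 92.7. Whether each of them, Tollip in particular, recruits or activates these ligases was not examined. Arrdc2 was the highest at 99.6 and Ndfip1 the lowest at 75.5. Promoters of the E2 enzymes that load HECT ligases were called in 4 of 4 cases (median 88.4), with Ube2d3 highest at 97.5 and Ube2l3 lowest at 77.4. Of the HECT ligases outside the family 16 of 16 were called (median 85.8), from Arel1 at 70.0 to Ube3a, the ligase lost in Angelman syndrome, at 99.2. The corresponding median over the 8 called members of the Nedd4 family was 70.4. These lists were compared as descriptions, without a test.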

How the data were processed

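ATAC-seq libraries of 5000 sorted MuSCs (4 Nedd4L-cKO, 3 Nedd4L-WT) were grouped by the genotype in their labels. The authors trimmed reads with Trimmomatic 0.39, aligned pairs to mm10 with BWA 0.7.17, filtered them with SAMtools, removed duplicates with Picard 2.26.3 and called broad peaks per library with MACS2 2.2.7.1, without a control or pooling. Per the file headers, tags were shifted by -100 bp and extended to 200 bp around the Tn5 cut, single read ends were used, and q cutoffs were 0.1 (broad) and 0.05 (narrow). The pileup deposited by the authors is a signal without scaling for depth, their deposited fold is a ratio to the local background of the library, and the deposited p- and q-values are given as -log10. As neither pileup nor fold is scaled between libraries, peaks were compared by calls and by ranks within a library.

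The 2 mitochondrial peaks per library were left out. No pair of libraries had a peak in common with equal ends and pileup (0 peaks). The mice behind the libraries are not numbered in the labels, so that p-values measure the spread between libraries. Gene spans came from RefSeq on GRCm38. Starts came from RefSeq promoters and otherwise from the outer end of the span, and further starts, exons and the genome sequence of mm10 were not used here. Of the 9 members, 5 matched the promoter sequences (not Nedd4l, Itch, Wwp1 and Hecw1). A further blood marker is not reported here. The members and lists were chosen with earlier results of these data known. Named regions are, per member, the shared region with the lowest limma p and that of highest median pileup percentile; from the lists, genes not called throughout and the highest and lowest; regions named because the genotypes did not overlap, and Nedd4l's first region, were chosen after their values were seen.

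Peaks were merged on 1 bp of overlap. Counts per locus were compared by exact permutation over 35 ways to label 4 of 7 libraries. Ranks were compared by limma 3.58.1 (lmFit, eBayes, R 4.3.3) over 53245 regions with Benjamini-Hochberg adjustment. Both were tested on simulated data. Python 3.11.15 was used with pandas 2.3.3, scipy 1.17.1, matplotlib 3.10.9 and numpy 2.4.6. Alternatives were a -log10 q of at least 5, equal numbers of peaks, each library left out, lane 1 alone, no flank, a 2.5 kb promoter window, outermost starts alone, a peak covering the start or 50% of the region, ranks by pileup, limma with trend and robust options, and a replicate block.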

Additional observations from a re-analysis of the deposited data

Results flagged for a closer look

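In 27 measures of the 4 Nedd4L-cKO libraries, 2 had a library far from the other 3 by Dixon's ratio of gap to range, and chance gives about 1 in 20 groups. The Hecw1 locus held 2 peaks in replicate 2 of Nedd4L-cKO and 1 in the others (ratio 1). Equal counts in the other 3 libraries give this ratio whatever the gap, so the chance rate does not hold for this flag. The pileup percentile at the internal start of Nedd4 was 57.5 in replicate 1 of Nedd4L-cKO and 70.7 to 72.6 in the others (ratio 0.872).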

How the results depend on the processing

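In 13 alternatives, 0 members passed a test of the number of peaks (exact, or limma for the replicate block), but in 9 of the 12 exact ones none could: the smallest p is 0.1 without a Nedd4L-cKO library, 0.0667 without a WT library or on lane 1 alone, and 0.25 with the block. In 14 alternatives, 0 shared member regions and 0 member promoters passed adjustment (adjusted p of at least 0.993), and in 11 each of the 28 HECT, adaptor and E2 genes had a promoter called in every library. Lane 1 alone holds the same 6 libraries as leaving out WT replicate 3. Each of these totals counts that set of libraries 2 times. Shared member regions with an unadjusted limma p under 0.05 were fewest, 0 of 15, with a -log10 q of at least 5, beside 4.03% of all regions. They were most, 4 of 57 (7.02%), without Nedd4L-cKO replicate 4, beside 4.66% of all. Without Nedd4L-cKO replicate 1 they were 4 of 58 (6.90%), beside 4.03% of all. With a -log10 q of at least 5, member promoters called in every library fell from 9 to 5 of 10: the outermost Nedd4 start was then called in 1 of 7 libraries, Hecw1 in 0, and Wwp2 and Hecw2 in 6 each. Within 2.5 kb the Nedd4l start was called in 0 Nedd4L-cKO and 2 WT libraries. Without WT replicate 3, the one library of lane 2, 1 region of the loci (Hecw2, chr1:54000982-54001629) was called in all WT and no Nedd4L-cKO libraries (lane 1 alone: 1), so that this count ranged from 0 to 1 when libraries were left out. The region was weak, with pileup percentiles of 10.6 and 0.977 in WT replicates 1 and 2. A peak of Nedd4L-cKO replicate 3 (54000721-54000980, percentile 5.14) ended just before it, so the count depends on how peaks were merged. The share of all regions at this setting is not given here.

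With a -log10 q of at least 5, the difference in peaks per locus went from -0.667 to -2.17 in Wwp2 (exact p = 0.0857, the lowest of the alternatives) and from -0.417 to -2.5 in Nedd4l (exact p = 0.4). Other differences between the genotypes changed sign without passing a test, and the cause was not tested. For peaks per locus this was Smurf1 (-0.333) and Hecw2 (0.417) with a -log10 q of at least 5, and Nedd4 with equal numbers of peaks (-0.583) and without flanks (-0.0833). For promoter scores it was Smurf1 (-0.0037) and Smurf2 (-0.030) with that q, Itch (-0.087), Wwp2 (0.14), Smurf1 (-0.0033) and Hecw2 (-0.11) on lane 1 alone, and Smurf1 (-0.0011) and Hecw2 (-0.18) by pileup. Leaving out 1 library at a time, peaks per locus ranged from -0.500 to 0.667 for Nedd4 and -1 to 0.333 for Nedd4l and -1.5 to 0 for Hecw2, and promoter scores from -0.78 to -0.31 for Hecw1, 0.066 to 0.20 at the outermost and -0.24 to 0.013 at the internal Nedd4 start, -0.087 to 0.18 for Itch, -0.087 to 0.037 for Wwp1, -0.23 to 0.14 for Wwp2, -0.0033 to 0.12 for Smurf1, -0.023 to 0.067 for Smurf2 and -0.11 to 0.17 for Hecw2.

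Same-numbered libraries did not deviate together (correlations of -0.12, 0.033 and -0.12), so the numbers were not taken to pair them. With a replicate block, which leaves replicate 4 of Nedd4L-cKO without a partner, no call changed, the Hecw1 promoter score was -0.78, 2 regions had an unadjusted p under 0.05, and the sign changed for Nedd4 peaks (-0.333 in the exact test and in limma) and the promoter scores of Itch (-0.0048), Wwp1 (0.037), Smurf2 (-0.018) and Hecw2 (-0.018). With 7 libraries the promoter differences had standard errors of 0.16 to 0.31, which limits the shifts that could be seen.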

Other observations

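The region of highest pileup in the Itch locus (chr2:155235881-155237496, median percentile 95.2) lay past the end of Itch and overlapped the first base listed for Dynlrb1, a dynein light chain gene whose span begins 9677 bp away. Its percentiles were 95, 95.2, 96.9 and 95.7 in Nedd4L-cKO and 95.8, 94.5 and 94.3 in WT libraries, which overlap. Rmdn1 and Cep95 ended 1363 bp from Wwp1 and 1199 bp from Smurf2. The protein-coding genes with peaks per 10 kb most like Nedd4l over the 7 libraries were Pspn, Npff and Pigt, each with a mean absolute difference of 0.024; their spans are 0.793, 0.783 and 11.2 kb, so that the flanks make up most of their loci.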
